A study of Mus musculus with 10 samples.

Results

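Type I interferons are secreted when cells sense foreign or misplaced nucleic acids. They bind the receptor made of Ifnar1 and Ifnar2, and the factor ISGF3, which contains Stat2 and Irf9, then switches on the interferon-stimulated genes. Their products detect viral RNA and DNA, block translation and replication, attach the ubiquitin-like protein Isg15 to other proteins, and damp the response again. Imiquimod is an agonist of TLR7, a receptor that plasmacytoid dendritic cells use to make type I interferon.

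Here 39 genes of this response were examined, chosen by symbol as interferon-stimulated genes downstream of TLR7 with both receptor chains and the factors Stat2 and Irf9. All 39 were among the 17016 genes with deposited values, and all 39 were among the 14548 genes that passed the filter on low values. The tissue was whole skin from BALB/c females of 10 to 11 weeks. All mice were treated with a 5% imiquimod cream, spread daily over shaved back skin through 5 days, a treatment used as a model of psoriasis. In the quinpirole group (5 libraries) the mice also had 5 intraperitoneal doses of quinpirole, which activates the dopamine receptor DRD2, alongside the cream. In the vehicle group (5 libraries) they had vehicle in its place, and how that was given is not stated in the labels. The comparison asks whether these genes differ in inflamed skin when DRD2 is activated. No imiquimod-free skin was analysed here, so a level cannot be read as induced by the cream. The labels number the samples within a group without tying each to its own mouse, and p-values therefore describe the spread between these libraries, which may be technical. Lists of values below follow the replicate numbers 1 to 5.

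Libraries held between 6763367 and 8361877 reads assigned to genes, and 1 read was worth 0.119 to 0.146 CPM, the read count scaled to a common library size corrected by edgeR's TMM factor. Defining genes of skin were abundant, with Krt14 of the basal epidermis at 5591 to 13002 CPM and Col1a1 of dermal fibroblasts at 227 to 1359 CPM. Genes of the hair shaft varied widely, from a summed 18.0 to 7250.3 CPM in vehicle and from 22.5 to 7113 CPM with quinpirole. In bulk tissue, fewer cells of a type and less RNA per cell cannot be told apart.

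ISGF3 binds a short DNA element, the interferon-stimulated response element, with a core of GAAA, any 2 bases and GAAA again. Promoter sequences from RefSeq on GRCm38.p6, spanning 250 bases before to 50 bases after a transcription start, were at hand for 28 of the 39 genes. The core stood on either strand in 12 of these 28 genes (42.9%), beside 3.99% of 27025 genes with a promoter entry. The core of the gamma-activated site, TTCNNNGAA, which reads alike on both strands, stood in 8 of 28 (28.6%), beside 9.55% of all. In some promoters copies of a core overlapped each other or overlapped the other core. A match describes letters and not a bound site. The stretches below are those of Isg15 and Rsad2, the 2 genes whose values lay furthest below vehicle with quinpirole, and of Ifit1, Ifit3 and Oas1a, whose mean log2 values lay above it. They run 5′ to 3′ on the strand of the gene, upstream of the start, with each match to the core of the response element, on either strand, in capitals.
Isg15: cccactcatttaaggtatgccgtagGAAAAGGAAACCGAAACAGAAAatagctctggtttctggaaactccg
Rsad2: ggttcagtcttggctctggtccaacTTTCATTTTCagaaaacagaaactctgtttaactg
Ifit1: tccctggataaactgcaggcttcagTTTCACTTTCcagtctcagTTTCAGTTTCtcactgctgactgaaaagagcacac
Ifit3: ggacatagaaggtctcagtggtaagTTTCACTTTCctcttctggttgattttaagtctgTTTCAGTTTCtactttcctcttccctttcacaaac
Oas1a: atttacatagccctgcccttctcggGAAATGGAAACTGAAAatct
The Isg15 stretch is chr4:156200850-156200921 on the minus strand and holds 3 overlapping matches, 78 to 57 bases upstream of the start. The Rsad2 stretch, chr12:26456538-26456597 on the minus strand, holds 1 match 120 to 111 bases upstream. On the plus strand of chromosome 19, Ifit1 (chr19:34640760-34640838) and Ifit3 (chr19:34583348-34583441) hold 2 separate matches each. The Oas1a stretch, chr5:120907526-120907570 on the minus strand, holds 2 overlapping matches ending 5 bases upstream of the start. Of the 12 genes with a match in the window, 9 had higher and 3 lower mean log2 values with quinpirole. Of the 16 without one, 15 had higher and 1 lower values.

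Mean levels ran from 1.53 CPM for Mx2 to 78.4 CPM for Ifnar1, with 12 genes under 5 CPM and 16 over 20 CPM. Per kilobase of annotated exon, Ifi27l2a stood highest at 96.1 CPM per kilobase, followed by Lgals3bp at 15.1 and Ifnar1 at 13.2. Rsad2 at 0.548 and Mx2 at 0.422 CPM per kilobase stood lowest. Isg15 itself, a short gene, was at 4.64 CPM per kilobase and rested on 13 to 46 reads per library.

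**Figure D1:**
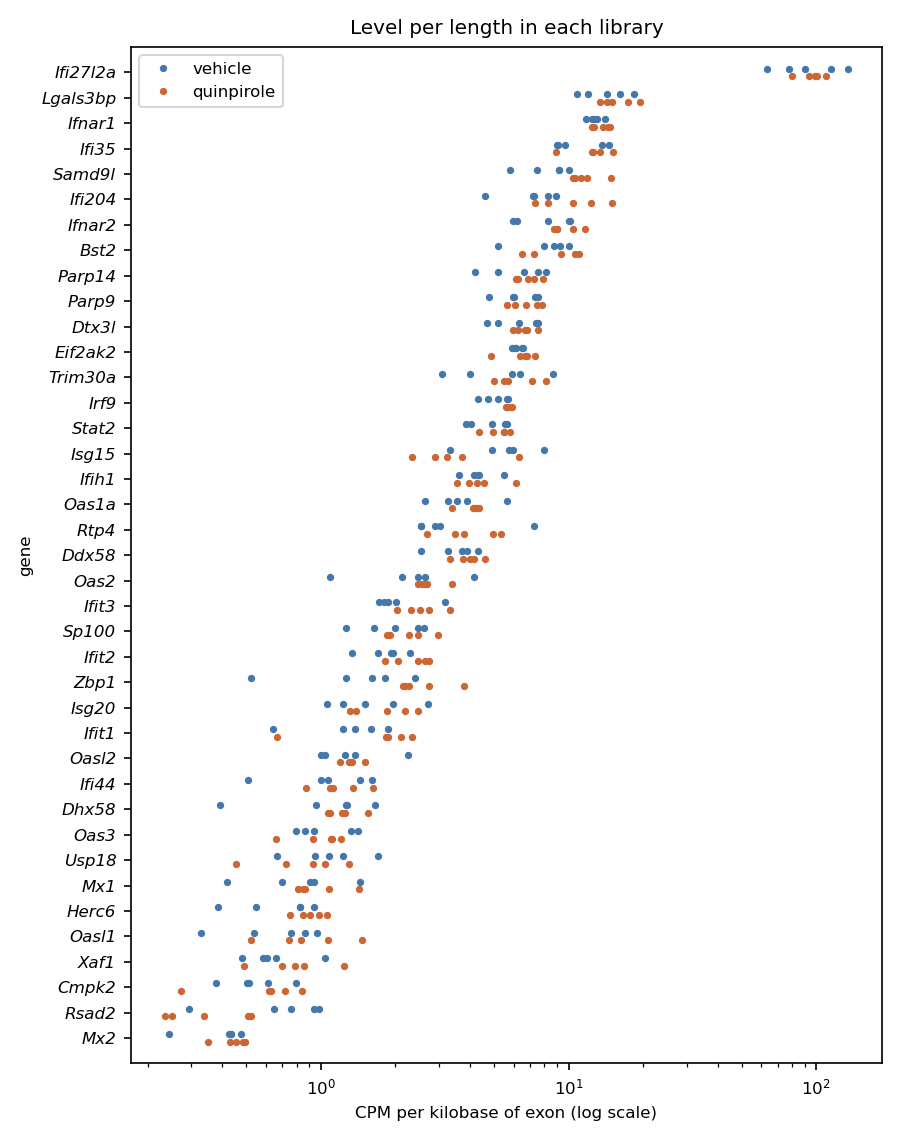
Level of each of the 39 genes in CPM per kilobase of annotated exon (horizontal axis, log scale), 1 point per library, blue for vehicle and orange for quinpirole. Ifi27l2a lies apart at the top with a mean of 96.1, Mx2 lies lowest with a mean of 0.422, and the points of the groups overlap for nearly every gene.

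Vehicle replicate 2 stood apart from the other libraries. It was the lowest library for 26 of 39 genes, where it was the lowest for 12% of all genes tested, and was among the lowest 3 libraries for 34. It was the highest library for none. Vehicle replicate 4 was highest for 8 of 39 genes, where it was highest for 9.9% of all genes, and was among the highest 3 for 26. Quinpirole replicate 4 was highest for 10 of 39, where it was highest for 21.8% of all genes. The median deviation of the 39 genes from their own means, in log2, was -0.07, -0.45, -0.18, 0.23 and 0.00 in vehicle and 0.10, 0.08, -0.05, 0.16 and 0.20 with quinpirole. The same median over all genes lay between -0.01 and 0.02. The vehicle group was the wider, with an SD of these medians of 0.25 against 0.09. Gene by gene, 29 of 39 genes (74.4%) had a larger SD of log2 values in vehicle, beside 47.5% of all genes, and 23 of 39 (59.0%) without vehicle replicate 2, beside 44.9%. Without vehicle replicates 2 and 4, a pair chosen once values had been seen, it was 17 of 39 (43.6%), beside 45.2%. Those libraries held the lowest and highest medians of the vehicle group. Leaving them out narrows that group alone by construction, so this count does not test where the wider spread came from.

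**Figure D2:**
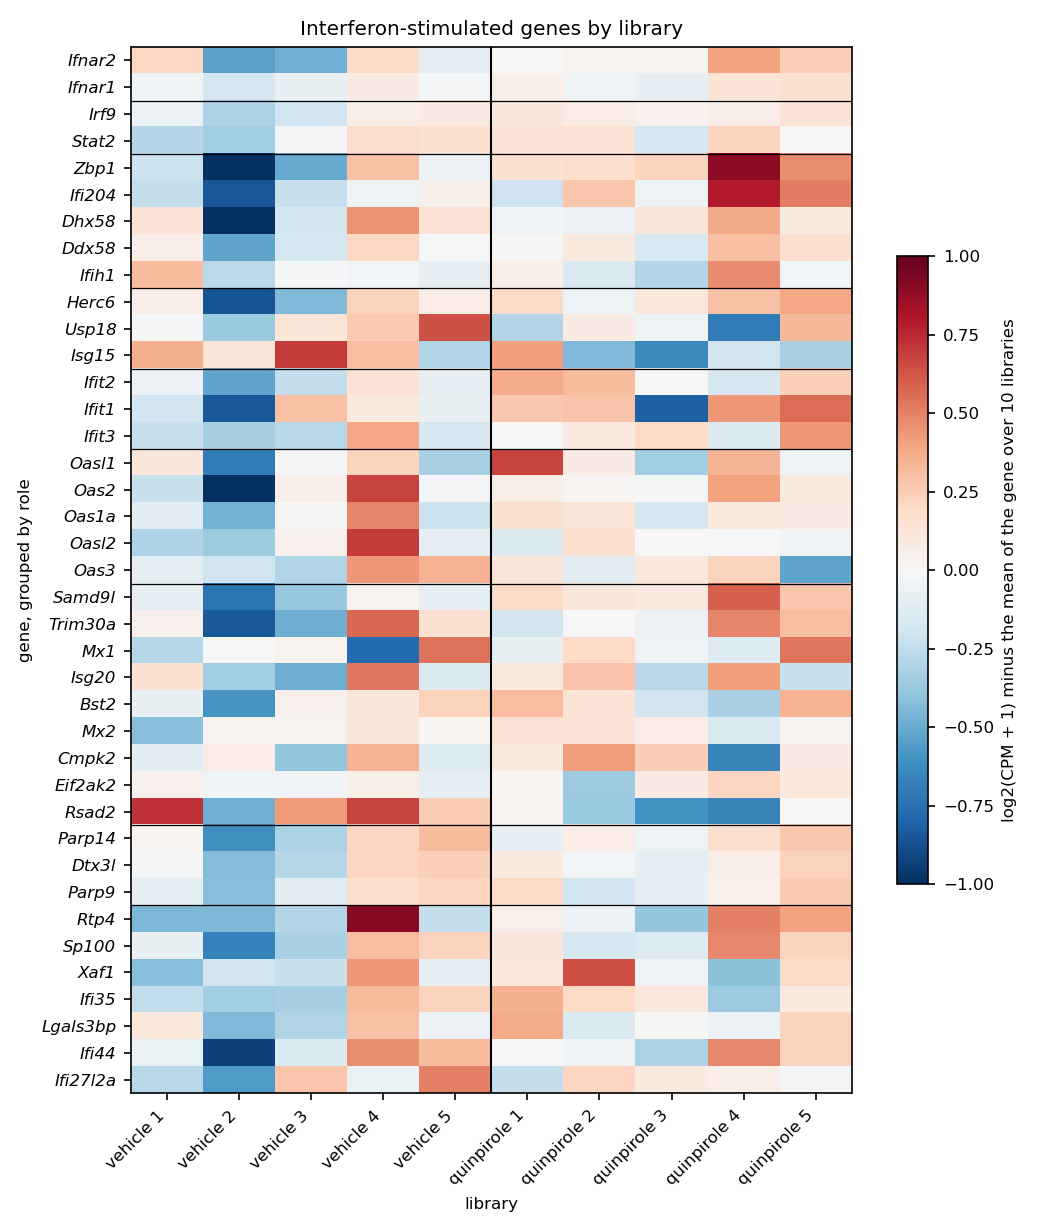
Deviation of each gene from its own mean over the 10 libraries on the scale of log2(CPM + 1), colours cut at 1 in either direction, genes grouped by role with black lines between roles. The column of vehicle replicate 2 is blue for most genes, and vehicle replicate 4 and quinpirole replicate 4 are mostly red. Some genes break the pattern: Mx1 is lowest in vehicle replicate 4, and Rsad2, Usp18, Cmpk2 and Ifi35 are lowest in quinpirole replicate 4.

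Markers of macrophages and monocytes were low in the same library, and by median deviation so were those of other immune cells. In vehicle replicate 2 the median deviation was -0.72 for macrophage and monocyte, -0.58 for neutrophil and -0.41 for dendritic and Langerhans cell markers. It was -0.33 for T cell and -0.2 for plasmacytoid dendritic cell markers, beside -0.19 for keratinocyte markers. Dendritic, T cell and plasmacytoid markers were lower still in vehicle replicate 3 (-0.55, -0.41 and -0.27). Neutrophil markers were lower still in quinpirole replicates 1 and 2 (-0.63 and -0.71), and plasmacytoid markers were at -0.21 in quinpirole replicate 1. Summed levels did not follow for every list. The neutrophil sum in vehicle replicate 2 was 8237 CPM, against 7874 CPM in vehicle replicate 3 and 2880.2 to 8594 CPM with quinpirole. Its dendritic and plasmacytoid sums, 275 and 819 CPM, exceeded those of vehicle replicate 3 (236 and 764 CPM). The summed level of the 13 macrophage and monocyte genes was 911 CPM in vehicle replicate 2. It was 1584 to 1883 CPM in the other vehicle libraries and 1619 to 2144 CPM with quinpirole. None of the 13 was at 0 in every library, and 11 of 13 had higher mean log2 values with quinpirole, with a median difference of 0.30, or 0.13 without vehicle replicate 2. The part of these cells in the values of the interferon-stimulated genes was not tested. Skeletal muscle genes were at a summed 502 to 1871 CPM in vehicle and 1050 to 5181 CPM with quinpirole, highest in quinpirole replicate 4. Vehicle replicates 2 and 3 and quinpirole replicate 1 also had the highest sums of hair shaft genes (7046, 7250.3 and 7113 CPM). With the mean log2 level of the hair shaft genes as a covariate the median difference of the 39 genes was 0.10, with 31 of 39 higher, beside 49.6% of all genes, and 4 of 39 at an unadjusted p under 0.05, beside 10.8%. Neutrophil markers had lower values with quinpirole for 7 of 8 tested genes, with a median difference of -0.71, or -0.39 without vehicle replicate 4. By limma and edgeR 0 of the 8 were called and by DESeq2 1, beside 1.51% of all genes. At an unadjusted limma p under 0.05 stood 3 of the 8 with lower values, beside 4.47% of all genes, and 0 with higher values. Leaving out vehicle replicate 2 gave 7 lower, and leaving out vehicle replicate 4 gave 2. The part of muscle and neutrophils was not tested either. Of 7 tested markers of plasmacytoid dendritic cells, 5 had higher and 2 lower values, with a median difference of 0.21 and 0 called. At an unadjusted limma p under 0.05 stood 3 higher, beside 6.92% of all genes, and 0 lower, beside 4.47%. Leaving out quinpirole replicate 1 gave 4 higher, and leaving out vehicle replicates 2 and 4 gave 1. The median ran from 0.08 with the hair shaft covariate to 0.35 without quinpirole replicate 1 over the 21 alternatives, and was 0.13 without quinpirole replicate 2. Their part in the values of the 39 genes was not tested. Their defining marker Siglech was near the limit of detection, at 0.917 to 1.68 CPM in vehicle and 1.31 to 3.36 CPM with quinpirole (log2 difference 0.51, limma adjusted p = 0.385).

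**Figure D3:**
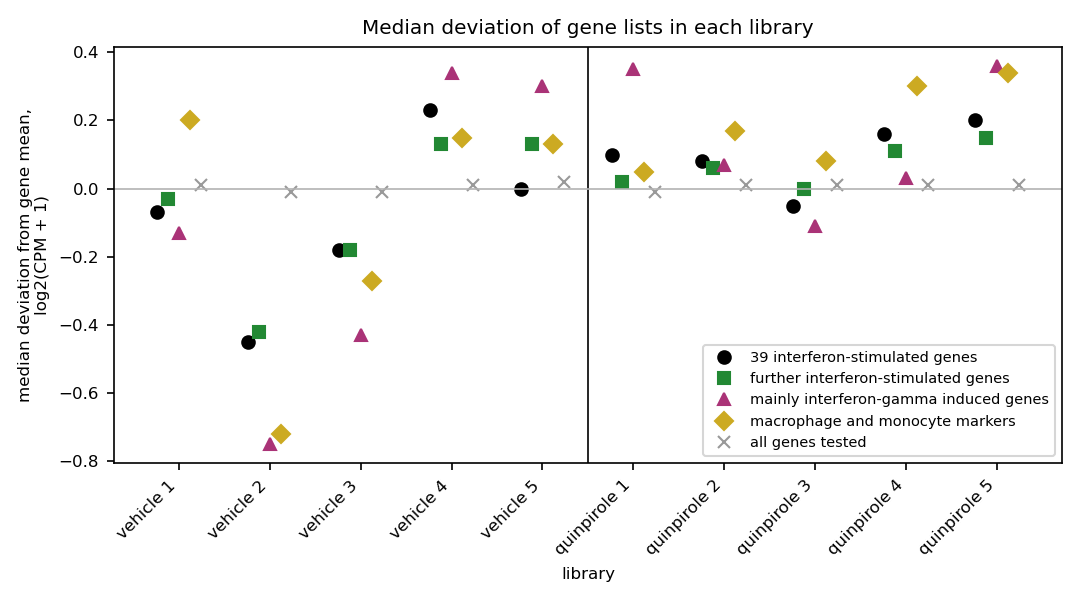
Median deviation of each gene list from its gene means in each library, on the scale of log2(CPM + 1), for the 39 genes, further interferon-stimulated genes, mainly interferon-gamma induced genes, macrophage and monocyte markers and all genes tested. All lists but the last are lowest in vehicle replicate 2, at -0.45 for the 39 genes and -0.72 for the macrophage markers.

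None of the 39 genes passed the test between quinpirole and vehicle. By limma at an adjusted p under 0.05, 0 of 39 were higher, beside 0.0137% of all genes tested, and 0 were lower, beside 0.00687% (0.0206% in either direction). By edgeR's quasi-likelihood test and by DESeq2 it was 0 of 39 as well, beside 0.0344% and 1.51% of all genes. At an unadjusted limma p under 0.05 stood 3 genes with higher values, Samd9l, Zbp1 and Ifi204, beside 6.92% of all genes, and 1 with lower values, Rsad2, beside 4.47%. These 4 make 10.3% of the 39 genes, beside 11.4% of all genes in either direction, and edgeR and DESeq2 also put 4 of 39 there, beside 11.6% and 11.8%. The groups did not overlap for 1 gene with higher values, Samd9l, beside 1.34% of all genes, and for 0 with lower values, beside 0.859%. That is 2.56% of the 39 genes, beside 2.2% of all genes. Both shares lie near those of all genes.

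Most of the small differences had the same sign. Mean log2 values were higher with quinpirole for 34 of 39 genes (87.2%), beside 49.6% of all genes tested, and the median log2 difference was 0.16, beside -0.0021 over all genes. The 5 genes with lower values were Rsad2, Isg15, Usp18, Oas3 and Oasl2. The genes vary together from library to library, so their signs are not separate observations. Without vehicle replicate 2 the median was 0.06, with 28 of 39 genes higher (71.8%), beside 49.9% of all genes, and 3 of 39 at an unadjusted limma p under 0.05, beside 11.1%. That left-out library made the difference over 1.5 times smaller for 19 genes and over 1.5 times larger for 2, and turned its sign for 6. Without vehicle replicate 4 the median was 0.25, with 36 of 39 higher (92.3%), beside 50.1%, and 8 of 39 (20.5%) at an unadjusted limma p under 0.05, beside 9.56%. A setting added once values had been seen left out both libraries. It gave a median of 0.14, with 31 of 39 higher (79.5%), beside 50.2%, and 3 at an unadjusted limma p under 0.05, beside 7.82%.

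**Figure D4:**
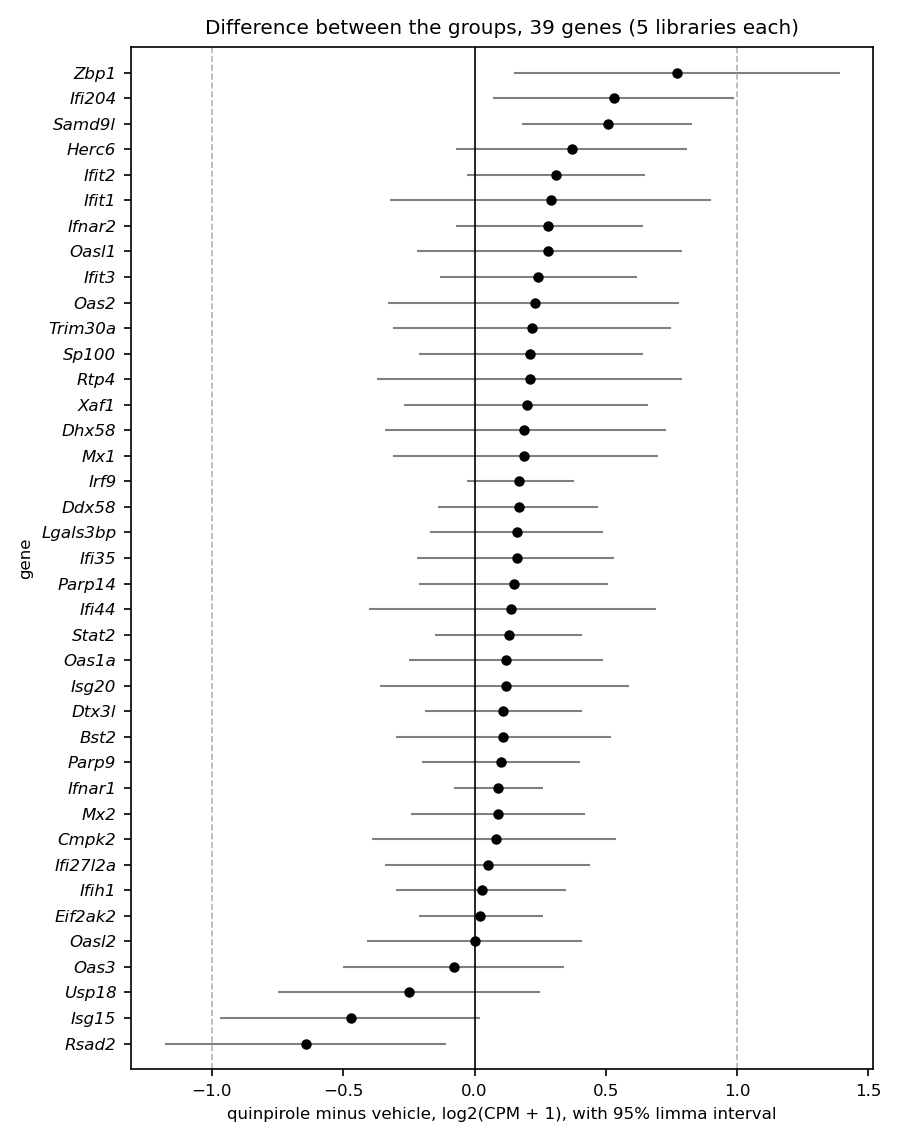
Difference between quinpirole and vehicle for each of the 39 genes on the scale of log2(CPM + 1), with its 95% limma interval, 5 libraries a group; dashed lines mark a log2 difference of 1 in either direction. Most points sit a little right of 0, from Rsad2 at -0.64 to Zbp1 at 0.77, and the intervals of all genes but Zbp1 and Rsad2 lie inside the dashed lines.

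The intervals limit the size of a difference. For 37 of the 39 genes the 95% limma interval of the log2 difference lay within 1 of 0, which is a 2-fold change on the scale of log2(CPM + 1). The exceptions were Zbp1 (0.15 to 1.39) and Rsad2 (-1.18 to -0.11). The median half-width was 0.41 for these genes, beside 0.32 over all genes tested. The added 1 CPM shrinks changes of low genes, so the bound is looser for those at a few CPM.

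The receptor chains and their transcription factors had small differences, and none passed. Ifnar1, the chain that signals through Tyk2, measured 75.6, 69.6, 74.2, 83.0 and 77.5 CPM in vehicle and 82.1, 75.4, 73.7, 86.0 and 87.1 CPM with quinpirole. The groups overlapped, and the log2 difference was 0.09 with an interval of -0.08 to 0.26 (limma adjusted p = 0.723), the narrowest of the 39, and 0.06 without vehicle replicate 2. Ifnar2, the high-affinity chain, measured 33.8, 19.8, 20.6, 33.4 and 27.4 CPM in vehicle and 29.0, 29.9, 29.8, 38.9 and 34.6 CPM with quinpirole. Vehicle replicates 2 and 3 were the low ones, and the log2 difference was 0.28 (SE 0.16, limma adjusted p = 0.539), or 0.18 without vehicle replicate 2.

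Stat2 and Irf9 are parts of ISGF3. Stat2 measured 23.9, 22.9, 29.1, 33.4 and 32.9 CPM in vehicle and 32.4, 32.6, 25.9, 34.5 and 29.4 CPM with quinpirole, a log2 difference of 0.13 (SE 0.13, limma adjusted p = 0.749). The ranges of the groups overlapped, and without vehicle replicate 2 the difference was 0.06. Irf9 measured 27.9, 23.2, 25.4, 30.4 and 30.8 CPM in vehicle and 31.5, 30.7, 30.1, 30.5 and 31.9 CPM with quinpirole. The quinpirole libraries lay within 2 CPM of each other, and the difference was 0.17 (SE 0.09, limma adjusted p = 0.520), or 0.11 without vehicle replicate 2.

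Among the sensors of nucleic acids, all 5 had higher mean log2 values with quinpirole and none passed. Zbp1, which senses Z-form nucleic acids and can start necroptosis, lies at chr2:173206612-173218923 (mm10, minus strand). It measured 5.66, 1.85, 4.46, 8.45 and 6.43 CPM in vehicle and 7.61, 7.72, 8.04, 13.4 and 9.69 CPM with quinpirole. Vehicle replicate 4 alone of its group lay among the quinpirole libraries, and the means were 5.37 ± 2.45 and 9.28 ± 2.42 CPM (SD, n = 5 each). The log2 difference was the highest of the 39 genes at 0.77 (SE 0.28, limma adjusted p = 0.332), and 0.50 without vehicle replicate 2.

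Ifi204, a DNA sensor of the p200 family at chr1:173747293-173766943 (minus strand), measured 25.6, 16.4, 25.8, 29.3 and 31.7 CPM in vehicle and 26.2, 37.0, 29.4, 53.5 and 43.8 CPM with quinpirole. Quinpirole replicates 2, 4 and 5 exceeded every vehicle library, and the log2 difference was 0.53 (SE 0.21, limma adjusted p = 0.370). Its relatives share much sequence, so reads may have been divided among them and its level is uncertain. Ifih1 (MDA5), a sensor of long double-stranded RNA and the sensor with the highest mean CPM, measured 44.8, 29.5, 35.5, 35.1 and 33.8 CPM in vehicle and 37.2, 32.3, 29.0, 50 and 35 CPM with quinpirole. Its log2 difference was 0.03 (SE 0.15, limma adjusted p = 0.963), and its sign turned without vehicle replicate 2 (-0.04), without quinpirole replicate 4 (-0.09) or with the mean log2 level of hair shaft genes as a covariate. Ddx58 (RIG-I) and Dhx58 (LGP2), the other RNA helicases of this family, had differences of 0.17 and 0.19 (limma adjusted p = 0.699 and 0.812), and without vehicle replicate 2 that of Ddx58 was 0.06 and that of Dhx58 turned sign (-0.041).

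**Figure D5:**
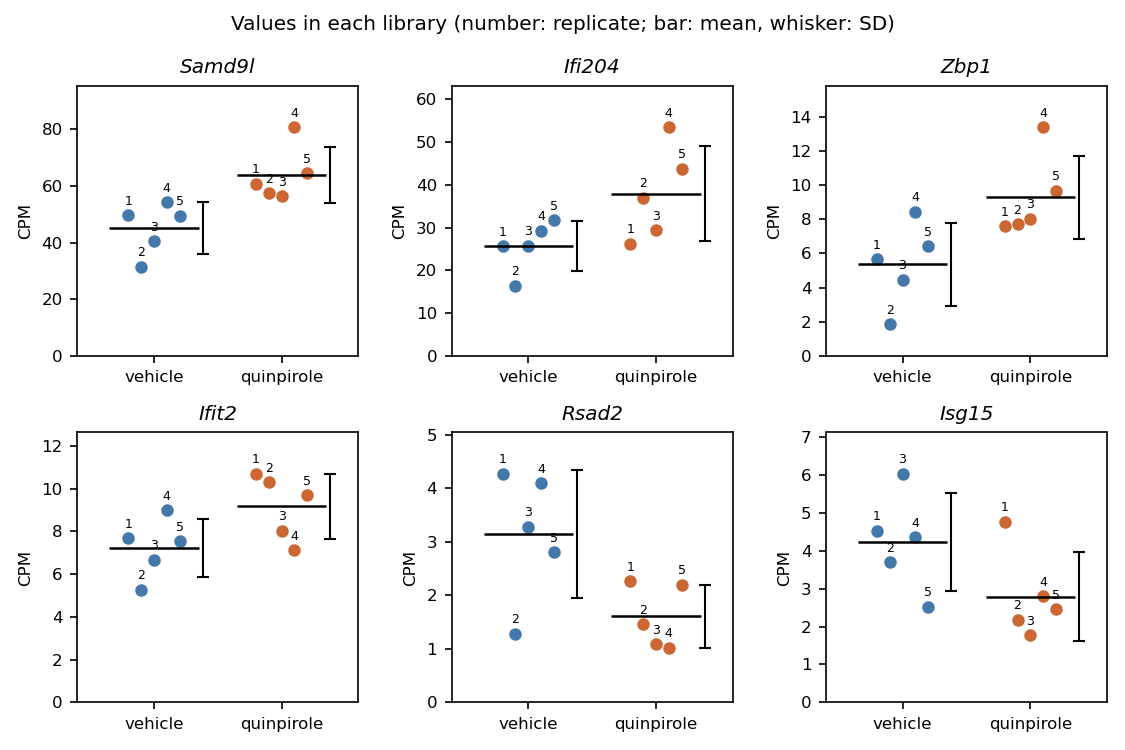
CPM in each library for 6 of the genes, numbered by replicate, with the group mean (bar) and SD (whisker). Samd9l, Ifi204, Zbp1 and Ifit2 sit higher with quinpirole and Rsad2 and Isg15 lower; of these, the groups of Samd9l alone do not overlap, with 54.3 CPM as its highest vehicle value and 56.4 CPM as its lowest quinpirole value.

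Of 3 genes of the Isg15 system, 1 had higher and 2 lower mean log2 values, and none passed. Isg15, the ubiquitin-like modifier, lies at chr4:156199424-156200818 (minus strand) and measured 4.53, 3.70, 6.03, 4.36 and 2.52 CPM in vehicle and 4.76, 2.18, 1.77, 2.80 and 2.45 CPM with quinpirole. Quinpirole replicate 1 lay among the vehicle libraries and vehicle replicate 5 among the quinpirole ones. The means were 4.23 ± 1.28 and 2.79 ± 1.16 CPM (SD, n = 5 each), a log2 difference of -0.47 (SE 0.23, limma adjusted p = 0.464). Over 21 alternatives it ran from -0.64 without quinpirole replicate 1 to -0.24 with a pseudocount of 5, and was -0.32 with the hair shaft covariate. Herc6, the ligase that attaches Isg15 in mouse, measured 7.67, 3.56, 5.11, 8.72 and 7.69 CPM in vehicle and 8.44, 6.99, 7.91, 9.16 and 9.82 CPM with quinpirole. Its log2 difference was 0.37 (SE 0.20, limma adjusted p = 0.515), with vehicle replicates 2 and 3 below every quinpirole library, and 0.20 without vehicle replicate 2. Usp18, which removes Isg15 and blocks signalling at Ifnar2, had a difference of -0.25 (SE 0.23, limma adjusted p = 0.726).

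The IFIT proteins bind viral RNA and interfere with its translation. Their genes lie in a row on the plus strand of chromosome 19, with 7111 bases between Ifit2 and Ifit3 and 52139 between Ifit3 and Ifit1. Ifit2 measured 7.67, 5.27, 6.68, 8.98 and 7.55 CPM in vehicle and 10.7, 10.3, 8.04, 7.12 and 9.69 CPM with quinpirole, a log2 difference of 0.31 (SE 0.16, limma adjusted p = 0.481). Quinpirole replicates 1, 2 and 5 exceeded every vehicle library. Ifit3 measured 3.27, 2.99, 3.14, 5.55 and 3.50 CPM in vehicle and 4.04, 4.37, 4.77, 3.56 and 5.81 CPM with quinpirole. Apart from vehicle replicate 4, every vehicle library lay below every quinpirole library. The nearest, vehicle replicate 5 and quinpirole replicate 4, differed by little (3.50 and 3.56 CPM). The log2 difference between the groups was 0.24 (SE 0.17, limma adjusted p = 0.627), or 0.37 without vehicle replicate 4. Ifit1, which recognises RNA that lacks the methyl mark of host caps, measured 3.27, 1.71, 4.98, 4.23 and 3.64 CPM in vehicle and 4.88, 4.95, 1.77, 5.60 and 6.20 CPM with quinpirole. Vehicle replicate 2 and quinpirole replicate 3 were its low libraries, and the difference was 0.29 (SE 0.28, limma adjusted p = 0.741). It was 0.12 without the former and 0.53 without the latter, and 0.19 without quinpirole replicate 5. Relatives of Ifit1 and Ifit3 with similar sequence lie in the mouse genome, so these levels are uncertain where reads were divided.

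Active OAS enzymes make the short adenylate that activates RNase L. Of 5 genes of the OAS family, 3 had higher and 2 lower values, and log2 differences ran from -0.08 for Oas3 to 0.28 for Oasl1. Oas2 measured 9.43, 4.84, 11.7, 18.5 and 11.0 CPM in vehicle and 11.7, 11.4, 11.0, 15.1 and 12 CPM with quinpirole. The vehicle libraries ran from below to above the whole quinpirole range, and the difference was 0.23 (SE 0.25, limma adjusted p = 0.784), turning to -0.01 without vehicle replicate 2. Oasl1, which in mouse restrains translation of Irf7, measured 2.26, 0.854, 1.97, 2.51 and 1.40 CPM in vehicle and 3.81, 2.18, 1.36, 2.80 and 1.94 CPM with quinpirole (SE of the difference 0.23, limma adjusted p = 0.687). It rested on 6 to 32 reads per library, and its difference was 0.14 without vehicle replicate 2. Oas1a, Oas3 and Oasl2 had differences of 0.12, -0.08 and a value within 0.01 of 0 (limma adjusted p between 0.832 and 0.999). The sign of Oas3 turned without vehicle replicate 4 (0.02) or quinpirole replicate 5 (0.044).

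Of 9 further antiviral effectors, 8 had higher and 1 lower mean log2 values. Samd9l, which restricts cell growth and viral translation, lies at chr6:3372257-3399572 (minus strand). It measured 49.8, 31.5, 40.6, 54.3 and 49.5 CPM in vehicle and 60.8, 57.4, 56.4, 80.8 and 64.5 CPM with quinpirole. Every quinpirole library exceeded every vehicle library, though the nearest values differed by little. The means were 45.1 ± 9.10 and 64.0 ± 9.91 CPM (SD, n = 5 each), a log2 difference of 0.51 (SE 0.15) with the smallest p of the 39 genes, 0.00561, and a limma adjusted p of 0.239. Over 21 alternatives the difference stayed between 0.39 and 0.58, and the lowest adjusted p was 0.0823, by DESeq2.

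Rsad2 (viperin), an enzyme that makes a chain-terminating nucleotide, lies at chr12:26442746-26456452 (minus strand). It measured 4.27, 1.28, 3.28, 4.09 and 2.80 CPM in vehicle and 2.26, 1.46, 1.09, 1.02 and 2.20 CPM with quinpirole, on 8 to 34 reads per library. Vehicle replicate 2 was low, like the quinpirole libraries, and the other 4 vehicle libraries all exceeded them. The means were 3.14 ± 1.2 and 1.6 ± 0.594 CPM (SD, n = 5 each), a log2 difference of -0.64 (SE 0.25, limma adjusted p = 0.349). It was -0.84 without vehicle replicate 2 (limma adjusted p = 0.202) and -0.96 by edgeR, which adds no pseudocount of 1 CPM (adjusted p = 0.307). Cmpk2, a nucleotide kinase of mitochondria whose gene lies 12751 bases from Rsad2 on the opposite strand, had a difference of 0.08 (SE 0.21, limma adjusted p = 0.929). Without vehicle replicate 3 or quinpirole replicate 2 the sign of Cmpk2 turned, to -0.01 and -0.02.

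Mx1 encodes a GTPase against influenza viruses, and BALB/c mice are known to carry an Mx1 allele with a large deletion. It measured 2.64, 3.42, 3.54, 1.59 and 5.45 CPM in vehicle and 3.21, 4.08, 3.27, 3.05 and 5.42 CPM with quinpirole. The groups overlapped, with a difference of 0.19 (SE 0.23, limma adjusted p = 0.803). Vehicle replicate 4, high for most of the other genes, was its lowest library. The remaining effectors were Mx2, the exonuclease gene Isg20, Bst2 (tetherin, which holds virions at the cell surface), Eif2ak2 (PKR, which stops translation) and the TRIM gene Trim30a. Their differences ran from 0.02 for Eif2ak2 to 0.22 for Trim30a, with limma adjusted p between 0.773 and 0.957. Mx2 is annotated as a polymorphic pseudogene in GENCODE M21. Without vehicle replicate 2 the sign of Bst2 turned (-0.024), as did that of Eif2ak2 without quinpirole replicate 4 (-0.026) and that of Mx2 without vehicle replicate 1 (-0.0036).

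Parp9 and Dtx3l form a complex of an ADP-ribosyl reader and a ubiquitin ligase, and Parp14 is an ADP-ribosyl transferase. Dtx3l measured 36.2, 26.8, 29.7, 42.5 and 43.3 CPM in vehicle and 39, 35.7, 34.1, 38.2 and 43.0 CPM with quinpirole, a log2 difference of 0.11 (SE 0.14, limma adjusted p = 0.815). Parp14 measured 61.6, 39.2, 48.2, 70.3 and 75.4 CPM in vehicle and 57.0, 63.6, 58.1, 67.5 and 73.1 CPM with quinpirole. In both, vehicle replicates 2 and 3 lay below every quinpirole library and vehicle replicates 4 and 5 near the top. The differences of Parp14 and Parp9 were 0.15 and 0.10 (limma adjusted p = 0.778 and 0.827). Without vehicle replicate 2 the differences of Dtx3l, Parp14 and Parp9 were 0.01 each. Parp9 and Dtx3l overlap at their 5′ ends on opposite strands of chromosome 16. Libraries were directional, but whether counting used the strand is not given in the sources used here.

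The last 7 genes have less settled roles, and all had higher mean log2 values with quinpirole, with differences from 0.05 for Ifi27l2a to 0.21 for Sp100 and Rtp4. Sp100, a protein of PML nuclear bodies, measured 15, 9.54, 12.4, 19.8 and 18.7 CPM in vehicle and 17.2, 14.0, 14.4, 22.5 and 18.6 CPM with quinpirole. The groups overlapped (SE 0.20, limma adjusted p = 0.729), and the difference was 0.07 without vehicle replicate 2. Lgals3bp, a secreted glycoprotein, measured 45.8, 30.9, 34.2, 52.3 and 40.7 CPM in vehicle and 55.1, 38.3, 42.7, 40.8 and 49.6 CPM with quinpirole, a log2 difference of 0.16 (SE 0.15, limma adjusted p = 0.732), or 0.07 without vehicle replicate 2. Ifi27l2a, the gene with the highest level per kilobase, measured 35.8, 29.2, 53.2, 41.6 and 62.1 CPM in vehicle and 36.8, 50.8, 46.7, 45.7 and 43.1 CPM with quinpirole. Its vehicle values spread on both sides of the quinpirole ones (limma adjusted p = 0.946), and its sign turned without vehicle replicate 2 (-0.085), without vehicle replicate 1 (-0.013) or with the hair shaft covariate (-0.074). Ifi35, Ifi44, Rtp4 and Xaf1 had limma adjusted p between 0.768 and 0.867, and the sign of Ifi44 turned without vehicle replicate 2 (-0.071).

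The interferons themselves were at a few reads. Ifnk, the interferon of keratinocytes, had 10 reads in all in vehicle and 8 with quinpirole (two-sided exact permutation p = 0.50), and Ifng had 5 and 6 (exact permutation p = 0.929). With so few reads a difference was not detectable. Ifnb1 and the Ifna genes were not analysed here. Upstream of them, Tlr7, the receptor of imiquimod, measured 19.1 ± 5.75 CPM in vehicle and 19.9 ± 3.43 CPM with quinpirole (SD, n = 5 each), a log2 difference of 0.09 (limma adjusted p = 0.907) that turned to -0.04 without vehicle replicate 2 and to -0.06 with the hair shaft covariate. Of 12 genes of the route from TLR7, 0 passed, with a median difference of -0.07 and 4 higher. Leaving out vehicle replicate 2 gave a median of -0.13 with 2 higher, quinpirole replicate 4 gave -0.09 with 2, vehicle replicate 5 gave -0.03 with 5 and quinpirole replicate 1 gave -0.04 with 5. The hair shaft covariate gave -0.12 with 1 higher. The smallest p there belonged to the adaptors and kinases Traf3 (-0.17), Irak1 (0.14) and Myd88 (-0.21), with limma adjusted p between 0.493 and 0.638.

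Of 22 genes of interferon signalling and its control outside the list, 0 passed, 13 were higher and the median difference was 0.02, turning to -0.04 without vehicle replicate 2 or without quinpirole replicate 4 and to -0.06 with the hair shaft covariate. Irf7, the factor that amplifies interferon production, had a difference of 0.19 (limma adjusted p = 0.750). The inhibitor Socs1 had -0.31 and the phosphatase gene Ptpn11 -0.27 (limma adjusted p = 0.547 and 0.436).

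Of 62 tested further interferon-stimulated genes outside the 39, 0 passed, 47 were higher and the median difference was 0.17, or 0.09 with 44 higher without vehicle replicate 2. At an unadjusted limma p under 0.05 stood 9 higher, beside 6.92% of all genes, and 1 lower, beside 4.47%. That count moved with single libraries. Leaving out vehicle replicate 2 gave 3 higher and 3 lower, quinpirole replicate 5 gave 3 and 1, vehicle replicate 1 or 3 gave 5 and 1, quinpirole replicate 4 gave 6 and 2, and vehicle replicate 4 or 5 gave 13 and 1. The chemokine gene Cxcl10 measured 0.629, 0.570, 1.57, 0.793 and 1.54 CPM in vehicle and 4.40, 1.02, 2.18, 2.29 and 2.32 CPM with quinpirole (log2 difference 0.73, SE 0.25, limma adjusted p = 0.300), on 38 reads in vehicle and 96 with quinpirole. Only quinpirole replicate 2 lay within the vehicle range. Ifi205, a relative of Ifi204, had a difference of 0.77 (limma adjusted p = 0.316). Aim2, a DNA sensor that forms an inflammasome, measured 15.1, 8.69, 10.1, 13.7 and 16.9 CPM in vehicle and 7.49, 5.24, 8.45, 8.65 and 9.04 CPM with quinpirole, a difference of -0.65 (SE 0.19, limma adjusted p = 0.242). Apart from vehicle replicate 2, every vehicle library exceeded every quinpirole library. Genes induced mainly by interferon-gamma were higher in 27 of 31, with a median of 0.20, or 0.08 and 20 of 31 without vehicle replicate 2, and 0 passed. B2m, the light chain of MHC class I, and the chemokine gene Cxcl9 had differences of 0.75 and 0.97 (limma adjusted p = 0.293 and 0.335). Gbp2b, a guanylate-binding protein, measured 19.0 ± 6.45 CPM in vehicle and 27.1 ± 5.67 CPM with quinpirole (log2 difference 0.52, limma adjusted p = 0.378).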

How the data were processed

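Whole-skin total RNA was depleted of ribosomal RNA and prepared as directional libraries, per the labels' protocols. Listed in the submitters' processing notes are the programs RSEM 1.3.0, Trimmomatic 0.38, Bowtie2 and edgeR and the genome mm10, without roles. RSEM can divide reads among similar genes. The deposited table holds normalised counts, a signal in which each library's values were 100% whole reads once divided by the worth of 1 read, within 1e-06. They equalled CPM on edgeR's TMM library sizes computed from those reads and were used as deposited.

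Genes at 1 CPM or more in at least 5 libraries (14548) were tested on log2(CPM + 1) with limma 3.58.1 and a mean-variance trend in R 4.3.3. The tests were two-sided with no covariate, and Benjamini-Hochberg adjustment ran over every gene tested, with calls at 0.05. Alternatives were pseudocounts of 0.1 and 5, other filters, library totals, quantile normalization, DESeq2 1.42.0 or edgeR 4.0.16 applied to recovered reads, a replicate block, the mean log2 level of 24 hair shaft genes as a covariate, and left-out libraries. The fit was tested on simulated data. The genes and lists were chosen with earlier results of these data known. Each library's value is given, in each role, for the 2 genes of smallest p and the 1 of highest mean, and for Ifnar1, Ifnar2, Stat2, Irf9, Isg15, Rsad2, Mx1 and Ifit1. Other pathway lists give up to 3 genes by p, and Ifnk, Ifng, Irf7, Tlr7 and Cxcl10 whatever their p; 1 gene the rule names is not reported here. Siglech, Krt14 and Col1a1 fall outside that rule and were chosen after their values were seen. Positions and exon lengths came from GENCODE M21 by symbol. Within groups, no 2 libraries were repeats (chi-square per gene at least 6.42, where counting noise gives about 1). The labels give no batch. Figures used matplotlib 3.10.9.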

Additional observations from a re-analysis of the deposited data

Results flagged for a closer look

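Of 122 combinations of a named gene and a group of 5 libraries, 6 held a library far from the other 4 by Dixon's test at the 95% level, where chance gives about 1 in 20. Vehicle replicate 4 was far above the other vehicle libraries for Rtp4, at 15.5 CPM against 5.41 to 6.43 CPM, and for Ifit3, at 5.55 CPM against 2.99 to 3.50 CPM. Without it the log2 differences of these genes were 0.46 and 0.37, and neither passed the test. In the quinpirole group, replicate 4 lay above the rest for Oas2, at 15.1 CPM against 11.0 to 12 CPM, and for B2m, the light chain of MHC class I, at 2365 CPM against 937 to 1194 CPM. Quinpirole replicate 3 was low for Oas1a, at 6.41 CPM against 7.75 to 8.21 CPM. Vehicle replicate 1 was low for Mx2, at 0.880 CPM against 1.54 to 1.72 CPM, which is a few reads.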

How the results depend on the processing

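No interferon-stimulated gene of the 39 passed an adjusted p of 0.05 in any of 21 alternatives. Of 817 pairs of a gene and an alternative, 788 kept the sign, and 29 turned it, in 12 genes whose differences lay within 0.23 of 0. The genes called among all tested were 3, and 5 with a pseudocount of 0.1, with 1 CPM in all 10 libraries, with library totals or by edgeR, 6 without the filter, 219 by DESeq2, 14 with the hair shaft covariate, 0 without vehicle replicates 2 and 4, and 0 to 10 leaving out single libraries. Leaving out single libraries, genes of the 39 at an unadjusted p under 0.05 numbered 2 to 8 (4 with all libraries), 8 being without vehicle replicate 4, and the median was 0.06 to 0.25. Those without overlap numbered 1 to 3, beside 2.75% to 5.62% of all genes, 3 being without vehicle replicate 4 (7.69%, beside 3.14%). Without vehicle replicates 2 and 4, 4 did not overlap (10.3%), beside 5.53% of all genes, in smaller groups. Signs turned with the hair shaft covariate for Ifih1 (-0.00063), Ifi44 (-0.014) and Ifi27l2a (-0.074), and for Oasl2 with a pseudocount of 0.1 (0.0029) or quantiles (0.0041). They turned without vehicle replicates 2 and 4 for Ifih1 (-0.063), Oasl2 (0.11), Mx1 (-0.0023), Bst2 (-0.012) and Ifi27l2a (-0.14). Leaving out libraries, log2 differences ran from -0.088 to 0.11 for Ifih1, -0.041 to 0.33 for Dhx58, -0.012 to 0.42 for Oas2, -0.16 to 0.044 for Oas3, -0.091 to 0.17 for Oasl2, -0.0023 to 0.35 for Mx1, -0.0036 to 0.17 for Mx2, -0.017 to 0.25 for Cmpk2, -0.024 to 0.21 for Bst2, -0.026 to 0.12 for Eif2ak2, -0.071 to 0.28 for Ifi44 and -0.14 to 0.18 for Ifi27l2a. The causes were not tested. Depth limits the 12 genes with a mean under 5 CPM most, such as Mx2 with 7 to 15 reads per library. Same-numbered libraries correlated in their deviations at 0.22, -0.24, 0.19, 0.13 and 0.095, and 1 of 5 vehicle libraries correlated best with its own number. Whether the samples were paired by design cannot be read from these correlations. With the replicate block 0 genes were called in all and 0 of the 39.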
